A study of Mus musculus with 26 samples.

Results

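The transcripts described here come from 10 genes by which a cell takes up, makes and burns pyruvate: the aspartate aminotransferases Got1 and Got2, the malate dehydrogenases Mdh1 and Mdh2, the lactate dehydrogenase subunits Ldha and Ldhb, the monocarboxylate transporter Slc16a1, the mitochondrial pyruvate carrier subunits Mpc1 and Mpc2, and the pyruvate dehydrogenase subunit Pdha1. They are 10 of the 55401 Ensembl gene IDs in the deposited count table, found by matching each ID to its symbol in the GENCODE vM21 annotation. Across the 26 libraries they held between 0.0815% and 0.217% of a library's counts.

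All embryos were 1-cell embryos from in vitro fertilisation of B6D2F1 oocytes by B6D2F1 sperm, and all oocytes came from superovulated B6D2F1 females. The sample titles number the libraries in 2 separate series. In the first, 7 libraries came from embryos exposed to a thioxo-thiazolidinone compound that keeps the transcription factor c-Myc from binding its partner Max, and 7 from embryos labelled as controls. The compound is called the c-Myc inhibitor from here on, and its code name stands on the figures' axes. Per the labels' protocols it was present for 10 h, starting 2 h after insemination, and the sources used here do not give its dose. In the second series, 4 libraries came from embryos kept in alpha-amanitin, a toxin that blocks RNA polymerase II, at 100 µg/ml for 10 h from 1 h after mixing. The same series held 4 libraries of control embryos and 4 of MII oocytes, the unfertilised eggs arrested at the second meiotic metaphase. The labels give every embryo an age of 10 h and every oocyte an age of 0 h. For embryos this conflicts with the protocol, whose exposure of 10 h began 2 h or 1 h after mixing, and the labels do not say from when the age was counted. The labels name no donor animals or culture days, so the spread between libraries may be partly technical.

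Mouse oocytes and early embryos are known for living on pyruvate and lactate, with little use of glucose before the later cleavage stages. Slc16a1 moves both acids across the plasma membrane, lactate dehydrogenase interconverts them in the cytosol while passing electrons between them and NAD, and Mpc1 with Mpc2 carries pyruvate into mitochondria, where the pyruvate dehydrogenase complex turns it into acetyl-CoA. Lactate oxidation fills the cytosol with NADH, and the malate-aspartate shuttle carries those electrons inward: Mdh1 and Got1 work in the cytosol, Mdh2 and Got2 in the matrix.

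Because the c-Myc inhibitor acts on c-Myc and Max, whose paired form is known to bind the E-box CACGTG, the RefSeq promoters of the members (GRCm38.p6, 250 bases before to 50 bases after the start site) were searched for that motif, which reads the same on both strands. All 10 members had a promoter in the table. It stood in the promoters of 2 of them, Ldha and Slc16a1, and in at least 1 promoter of 8.09% of all 27025 genes in the table. The 250 bases before the start site are shown for these and for Got1, which lacks the motif and was the 1 member that passed the filter on low counts and was called lower in c-Myc inhibitor embryos. Capitals mark CACGTG.
Got1 promoter (chr19:43524606-43524855, minus strand): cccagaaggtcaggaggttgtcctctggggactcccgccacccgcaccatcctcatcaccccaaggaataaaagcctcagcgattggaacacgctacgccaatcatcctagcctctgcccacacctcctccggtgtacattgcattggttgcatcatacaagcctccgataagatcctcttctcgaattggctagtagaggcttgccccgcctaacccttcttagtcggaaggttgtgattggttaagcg
Ldha promoter (chr7:46845554-46845803, plus strand): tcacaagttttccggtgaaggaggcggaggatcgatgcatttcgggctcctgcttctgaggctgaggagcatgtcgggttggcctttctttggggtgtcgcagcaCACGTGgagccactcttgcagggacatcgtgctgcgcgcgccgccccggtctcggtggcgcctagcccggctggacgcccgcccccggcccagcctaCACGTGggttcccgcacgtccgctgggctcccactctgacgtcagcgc
Slc16a1 promoter (chr3:104638414-104638663, plus strand): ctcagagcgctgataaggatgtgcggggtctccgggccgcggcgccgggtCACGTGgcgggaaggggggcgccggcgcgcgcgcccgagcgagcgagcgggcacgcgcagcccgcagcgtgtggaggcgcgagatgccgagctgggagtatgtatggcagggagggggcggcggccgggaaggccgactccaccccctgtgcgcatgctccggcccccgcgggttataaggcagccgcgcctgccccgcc
In the Ldha window the motif began 145 and 48 bases before the start site, and in the Slc16a1 window it began 200 bases before it. A match describes these letters and shows no binding.

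Library totals ran between 20566278 and 27266040 counts in the first series and between 5371602 and 31540627 in the second. The shallowest library, alpha-amanitin replicate 3, detected 9497 genes, the fewest of all, and had no count for 6 of the 10 members. All 10 oocyte marker genes had counts in every MII library, and the summed level of the 10 was 6819 to 8386 CPM (counts scaled to a library total of 1000000) in c-Myc inhibitor embryos against 4045 to 5814 CPM in their controls. In the second series it was 4891 to 6420 CPM in alpha-amanitin embryos, 4390 to 5254 CPM in their controls and 7968 to 8591 CPM in MII oocytes. The summed level of 15 cumulus and granulosa cell markers was between 0.389 and 41.6 CPM over all libraries. Of these markers Areg and Ereg were at 0 throughout, while Has2 had counts in all 7 control libraries of the first series. Single libraries reached 34.3 CPM of Hsd3b1 (first-series controls), 23.4 CPM of Amhr2 (second-series controls) and 8.72 CPM of Tnfaip6 (MII oocytes). Of 10 sperm and spermatid markers, Tnp1, Tnp2, Smcp, Gapdhs and Pgk2 were at 0 in every library, and the sum was 4.56 to 23.8 CPM. Prm2 had counts in all 7 libraries of each first-series group and in all 4 MII libraries, with a median of 12.3 CPM in MII oocytes. Ldhc, another lactate dehydrogenase gene, had counts in all 4 MII libraries and in 6 of 7 libraries of each first-series group. It reached at most 6.62 CPM. The highest cumulus sum and the lowest mitochondrial share, 0.564%, fell in the same library, control replicate 2 of the first series.

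Ldhb was by far the most abundant of the 10 transcripts in every group. Per kilobase of merged exons, its mean level was 833 ± 148 CPM in c-Myc inhibitor embryos and 636 ± 113 CPM in their controls (SD, n = 7 each), 627 ± 207 CPM in alpha-amanitin embryos, 467 ± 62.5 CPM in their controls and 988 ± 125 CPM in MII oocytes (SD, n = 4 each). Pdha1 came second in every group, with group means of 17.9 to 30.7 CPM per kilobase, followed by Mdh1, with 9.63 to 17.1 CPM per kilobase. The means of the other aminotransferase, dehydrogenase, transporter and carrier genes were at most 15.2 CPM per kilobase. Without correction for length, Ldhb supplied on average between 77.1% and 86.8% of the members' summed CPM in each of the 5 groups. This sum without Ldhb was 194 ± 23.9 CPM in c-Myc inhibitor embryos against 231 ± 18.3 CPM in their controls (SD, n = 7 each).

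The lactate dehydrogenase genes encode the subunits of a tetrameric enzyme: Ldhb the heart-type subunit and Ldha the muscle-type subunit. The members' levels above and all single-gene levels below are CPM on library totals scaled by the trimmed mean of M values (TMM). This scaling allows for a handful of genes that fill much of a library. Levels of the oocyte, cumulus and sperm markers, single or summed, are on unscaled totals. Ldhb (chr6:142490249-142507957, minus strand, GRCm38) had a lowest, median and highest level of 987, 1357 and 1594 CPM in c-Myc inhibitor embryos, against 794, 1011 and 1317 CPM in their controls. The ranges overlapped, and 4 of 7 treated libraries lay above every control. The mean was 1308 ± 232 CPM with the c-Myc inhibitor and 998 ± 178 CPM without (SD, n = 7 each). The estimated log2 fold change, called the log2 change below, was 0.40 (SE 0.11, 95% interval 0.18 to 0.62) and the adjusted p was 0.0196 in edgeR's quasi-likelihood test, with Benjamini-Hochberg adjustment over all 13003 genes kept. The call was lost when the spread was estimated from all 5 groups together (log2 0.39, edgeR adjusted p = 0.170), with the replicate number as a block (log2 0.33, edgeR adjusted p = 0.0895) and without c-Myc inhibitor replicate 5 (log2 0.36, edgeR adjusted p = 0.0514). It was kept without control replicate 2 (log2 0.42, edgeR adjusted p = 0.0218). In the fit with the block, c-Myc inhibitor replicate 3 and control replicate 6 have no same-numbered partner and do not inform the change. CPM are shares of a library, so more Ldhb molecules per embryo and less RNA of other genes cannot be told apart. The oocyte marker sum moved the same way as Ldhb between these groups and did not overlap between them. Within it, Bmp15, Nlrp5 and Ooep had lower medians in treated than in control embryos (1214 against 1291, 958 against 1126 and 333 against 391 CPM). The other oocyte markers had higher ones, by most for Gdf9 (1740 against 360 CPM) and H1foo (1688 against 482 CPM). The part of the sum in the Ldhb difference was not tested.

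Between the stages of the second series, Ldhb was lower in embryos than in oocytes. It stood at 679, 765, 855 and 632 CPM in the 4 control embryo libraries, against 1806, 1590, 1350 and 1458 CPM in the 4 MII libraries. The groups did not overlap. The mean was 733 ± 98.2 CPM in control embryos and 1551 ± 196 CPM in MII oocytes (SD, n = 4 each), a log2 change of -1.09 (SE 0.21, edgeR adjusted p = 0.0041). The oocyte marker sum was likewise lower in every control embryo library than in every oocyte library, and its part in this difference was not tested. Within the sum, Ooep and Npm2 had higher medians in control embryos than in oocytes (513 against 451 and 889 against 677 CPM). The other oocyte markers had lower medians there. The alpha-amanitin libraries had 1086, 1238, 508 and 1104 CPM of Ldhb, of which 508 CPM belonged to the shallowest library. Of the treated libraries, 3 lay above all 4 controls and 1 below them. Against the controls the log2 change was 0.45 (SE 0.20, 95% interval 0.05 to 0.85) and did not pass the threshold (edgeR adjusted p = 0.605). Against MII oocytes, where all 4 alpha-amanitin libraries were lower than all 4 oocyte libraries, the log2 change was -0.64 (SE 0.20, edgeR adjusted p = 0.150).

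Ordered by mean Ldhb level, MII oocytes came first, then c-Myc inhibitor embryos, then the first series' controls, alpha-amanitin embryos and the second series' controls. The first series' controls and alpha-amanitin embryos did not differ beyond their SD, nor did alpha-amanitin embryos and the second series' controls. The means of MII oocytes and c-Myc inhibitor embryos lay slightly more than 1 SD apart, with overlapping ranges. The 2 series are set side by side without a test, because series and group cannot be told apart between them.

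Ldha (chr7:46841475-46855627, plus strand) had the lowest mean level per kilobase of the 10 members in every group, and many libraries held no count of it. In c-Myc inhibitor embryos 1 of 7 libraries held any Ldha count, with 4 counts in total over the group, against 6 of 7 control libraries and 119 counts. The treated library with counts, replicate 2, stood at 0.183 CPM. The control libraries had a lowest, median and highest level of 0, 0.635 and 1.64 CPM. Where no count was seen, a level of up to 0.112 to 0.154 CPM is still possible in these 14 libraries (3 counts of the TMM-scaled library total, for counting error only). Ldha did not pass the filter on low counts. Tested without that filter, its difference missed the threshold (edgeR adjusted p = 0.0857). In the second series Ldha had counts in 1 of 4 alpha-amanitin libraries (1.57 CPM) and in none of the 4 controls. In 2 of 4 MII libraries it reached 2.44 and 18.6 CPM. These 2 MII libraries were also the ones with the higher cumulus marker sums of their group, 31.5 and 25.8 CPM against 2.49 and 4.72 CPM in the MII libraries with no Ldha count. Control replicate 1 of the second series had a cumulus marker sum of 32.1 CPM and no Ldha count. In the first series, control replicate 2 had the highest sum, 41.6 CPM, with 0.997 CPM of Ldha. Control replicate 1 there had a sum of 3.84 CPM with 1.64 CPM of Ldha. The part of cumulus cells in the Ldha counts was not tested. Per kilobase, Ldhb made up on average at least 99.8% of the 2 subunits' transcripts in every group.

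**Figure D1:**
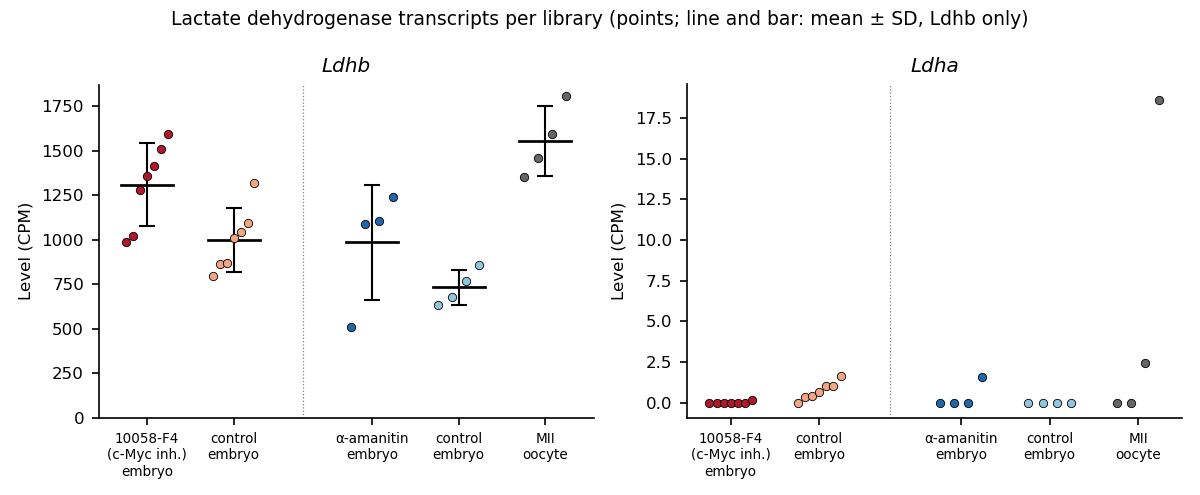
Levels of Ldhb (left) and Ldha (right) in CPM per library (points) in c-Myc inhibitor embryos and their controls (n = 7 each) and, right of the dotted line, alpha-amanitin embryos, their controls and MII oocytes (n = 4 each). Lines and bars are the mean ± SD of Ldhb, and none are drawn for Ldha. The highest Ldhb levels were in MII oocytes, and 1 of the 7 c-Myc inhibitor libraries had an Ldha count.

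Got1 (chr19:43499752-43524605, minus strand), the cytosolic aminotransferase of the shuttle, was the member that fell with the c-Myc inhibitor. Its lowest, median and highest levels were 6.76, 12.2 and 16.9 CPM in c-Myc inhibitor embryos, against 20.7, 25.999 and 28.5 CPM in their controls. Every treated library lay below every control library. The mean was 11.8 ± 3.65 CPM with the c-Myc inhibitor and 25.0 ± 3.39 CPM without (SD, n = 7 each), a log2 change of -1.07 (SE 0.21, 95% interval -1.49 to -0.65, edgeR adjusted p = 0.00146). Leaving out any 1 of the 14 libraries kept the call. Estimating the spread from all 5 groups together ended it (log2 -1.08, edgeR adjusted p = 0.475).

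With alpha-amanitin Got1 stood at 22.1, 25.3, 0 and 39.8 CPM, against 11.2, 24.1, 16.7 and 12.6 CPM in the controls. The library at 0 is the shallowest, where 0 counts allow up to 0.544 CPM on the TMM-scaled total, for counting error only. Deeper libraries of this series also held zeros. Control replicate 1 had no count for Mdh2 or Mpc1, and control replicate 4 and alpha-amanitin replicate 4 had none for Mpc2. The cause of these zeros was not tested. The log2 change of 0.47 (SE 1.02, 95% interval -1.53 to 2.47) did not pass the threshold (edgeR adjusted p = 0.998). The MII libraries were spread from 3.41 to 28.0 CPM. All control embryo libraries of the second series lay within that range, while the alpha-amanitin libraries reached above and below it. Neither embryo group was called different from oocytes in edgeR. The effect of the c-Myc inhibitor minus the effect of alpha-amanitin on Got1 was -1.53 on the log2 scale (SE 0.86) and missed the threshold (edgeR adjusted p = 0.377). Without alpha-amanitin replicate 3 that difference was -1.94 and passed it (edgeR adjusted p = 0.0333).

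Got2 (chr8:95864134-95888547, minus strand), the mitochondrial partner of Got1, had lowest, median and highest levels of 25.5, 30.5 and 41.7 CPM in c-Myc inhibitor embryos, against 24.6, 32.5 and 48.0 CPM in their controls. The groups lay on top of each other, with a log2 change of -0.10 (SE 0.17, 95% interval -0.43 to 0.23, edgeR adjusted p = 0.819). Per kilobase, Got2 therefore made up 58.6 ± 10.2% of the aminotransferase transcripts in c-Myc inhibitor embryos and 41.3 ± 5.09% in their controls (SD, n = 7 each), given as a description. Got2 was scattered in the second series, with 24.7, 24.8, 0 and 29.8 CPM with alpha-amanitin, 31.6, 14.5, 1.85 and 14.8 CPM in the controls, and 15.7, 14.8, 27.1 and 27.8 CPM in MII oocytes. A predicted gene on the opposite strand, Gm45760, overlaps Got2 and held 2514 counts beside 15517 for Got2. The sources used here do not give the strand setting of the counting, so reads of such pairs may have been shared.

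Mdh1 (chr11:21556787-21572367, minus strand), the cytosolic malate dehydrogenase, had lowest, median and highest levels of 16.1, 24.6 and 35.7 CPM in c-Myc inhibitor embryos, against 28.6, 30.8 and 36.5 CPM in their controls. Of the treated libraries, 5 of 7 lay below all controls, and the controls were the tighter group. The log2 change of -0.36 (SE 0.17, 95% interval -0.70 to -0.03) missed the threshold (edgeR adjusted p = 0.211). Second-series libraries held Mdh1 at 36.0, 32.3, 20.9 and 13.1 CPM with alpha-amanitin, 29.9, 34.5, 29.9 and 35.3 CPM in the controls, and 35.9, 35.7, 47.1 and 56.6 CPM in MII oocytes. All 4 control embryo libraries lay below all 4 oocyte libraries, with a log2 change of -0.44 that was not called (SE 0.45, edgeR adjusted p = 0.873).

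Mdh2 (chr5:135778480-135790398, plus strand), its mitochondrial counterpart, had lowest, median and highest levels of 10.4, 19.0 and 33.7 CPM in c-Myc inhibitor embryos, against 10.7, 15.9 and 29.6 CPM in their controls. These ranges nearly coincided (log2 change 0.21, SE 0.24, edgeR adjusted p = 0.712). In MII oocytes Mdh2 was at 58.3, 53.0, 30.4 and 74.5 CPM, and in control embryos of that series at 0, 29.7, 7.50 and 34.0 CPM, so that only the oocyte library at 30.4 CPM fell within the embryos' range. The log2 change of -1.61 carried an SE of 0.97 and was not called (edgeR adjusted p = 0.569). The alpha-amanitin libraries held 13.6, 11.7, 71.8 and 20.5 CPM, the highest of them in the shallowest library.

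**Figure D2:**
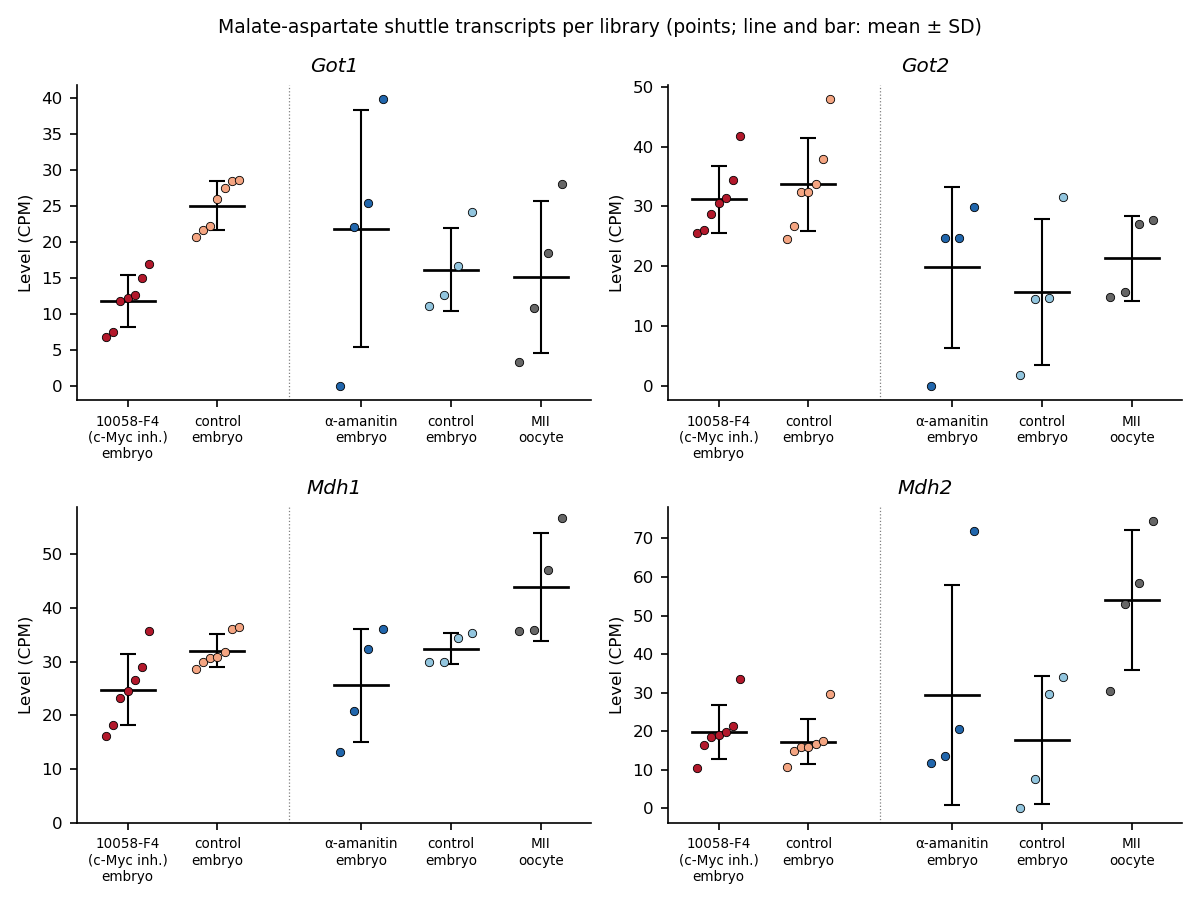
Levels of the cytosolic (left) and mitochondrial (right) aminotransferase and malate dehydrogenase transcripts in CPM per library (points), with the mean ± SD (line and bar), in c-Myc inhibitor embryos and their controls (n = 7 each) and in alpha-amanitin embryos, their controls and MII oocytes (n = 4 each). Got1 is the panel in which the c-Myc inhibitor libraries, 6.76 to 16.9 CPM, all lie below their controls, 20.7 to 28.5 CPM.

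Slc16a1 (chr3:104638668-104658462, plus strand), the plasma membrane carrier for lactate and pyruvate, had lowest, median and highest levels of 14.2, 22.8 and 28.0 CPM in c-Myc inhibitor embryos, against 19.5, 28.3 and 41.8 CPM in their controls. The ranges overlapped, and the log2 change of -0.44 (SE 0.20, 95% interval -0.82 to -0.05) missed the threshold (edgeR adjusted p = 0.190). In the second series it stood at 27.7, 28.5, 0 and 10.1 CPM in alpha-amanitin embryos, 37.0, 20.8, 18.6 and 9.42 CPM in control embryos and 51.4, 54.8, 56.4 and 85.3 CPM in MII oocytes. Neither embryo group overlapped the oocytes. The log2 change was -1.54 for control embryos against oocytes (SE 0.83, edgeR adjusted p = 0.467) and -1.87 for alpha-amanitin embryos against oocytes (SE 0.84, edgeR adjusted p = 0.421), and neither passed. When the spread was estimated from control embryos and oocytes alone, the first of these passed at an edgeR adjusted p of 0.0433.

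Mpc1 (chr17:8282904-8297661, plus strand) and Mpc2 (chr1:165460637-165481214, plus strand) encode the 2 subunits of the mitochondrial pyruvate carrier. Mpc1 had lowest, median and highest levels of 2.27, 7.85 and 18.9 CPM in c-Myc inhibitor embryos, against 8.74, 12.7 and 19.4 CPM in their controls (log2 change -0.42, SE 0.36, edgeR adjusted p = 0.588). Mpc2 had 3.26, 7.74 and 11.8 CPM in c-Myc inhibitor embryos, against 1.68, 5.51 and 12.5 CPM in their controls (log2 change 0.42, SE 0.39, edgeR adjusted p = 0.624). Both pairs of ranges overlapped, and the 2 estimates had opposite signs.

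Mpc1 in the second series was at 8.35, 5.24, 0 and 23.3 CPM with alpha-amanitin, 0, 9.18, 19.3 and 12.1 CPM in controls, and 17.7, 7.76, 3.87 and 13.1 CPM in MII oocytes, with no separation of the groups. Mpc2 was at 15.9, 16.8, 0 and 0 CPM with alpha-amanitin, 4.51, 0.787, 6.73 and 0 CPM in controls, and 15.0, 17.9, 20.3 and 26.4 CPM in MII oocytes. All 4 control embryo libraries therefore lay below all 4 oocyte libraries for Mpc2. Its log2 change of -2.73 had an SE of 1.67 and was not called (edgeR adjusted p = 0.594). A pseudogene named after Mpc1, Mpc1-ps, held 901 counts beside 6111 for Mpc1, so its reads may have been split.

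Pdha1 (chrX:160122209-160138413, minus strand), the catalytic E1 alpha subunit of pyruvate dehydrogenase, had lowest, median and highest levels of 48.8, 67.9 and 76.9 CPM in c-Myc inhibitor embryos, against 57.8, 73.4 and 83.6 CPM in their controls. The ranges overlapped (log2 change -0.13, SE 0.12, 95% interval -0.36 to 0.11, edgeR adjusted p = 0.630). It was at 68.5, 91.5, 194 and 104 CPM in alpha-amanitin embryos, 101, 156, 69.5 and 74.1 CPM in control embryos and 66.0, 75.9, 68.6 and 72.5 CPM in MII oocytes. The oocyte libraries were the tightest group, and the widest value again came from the shallowest library. Neither embryo group differed from oocytes past the threshold (log2 change 0.49, edgeR adjusted p = 0.641 for controls, and 0.70, edgeR adjusted p = 0.434 for alpha-amanitin). The gene Map3k15 overlaps Pdha1 on the opposite strand and held 6690 counts beside 44163 for Pdha1.

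**Figure D3:**
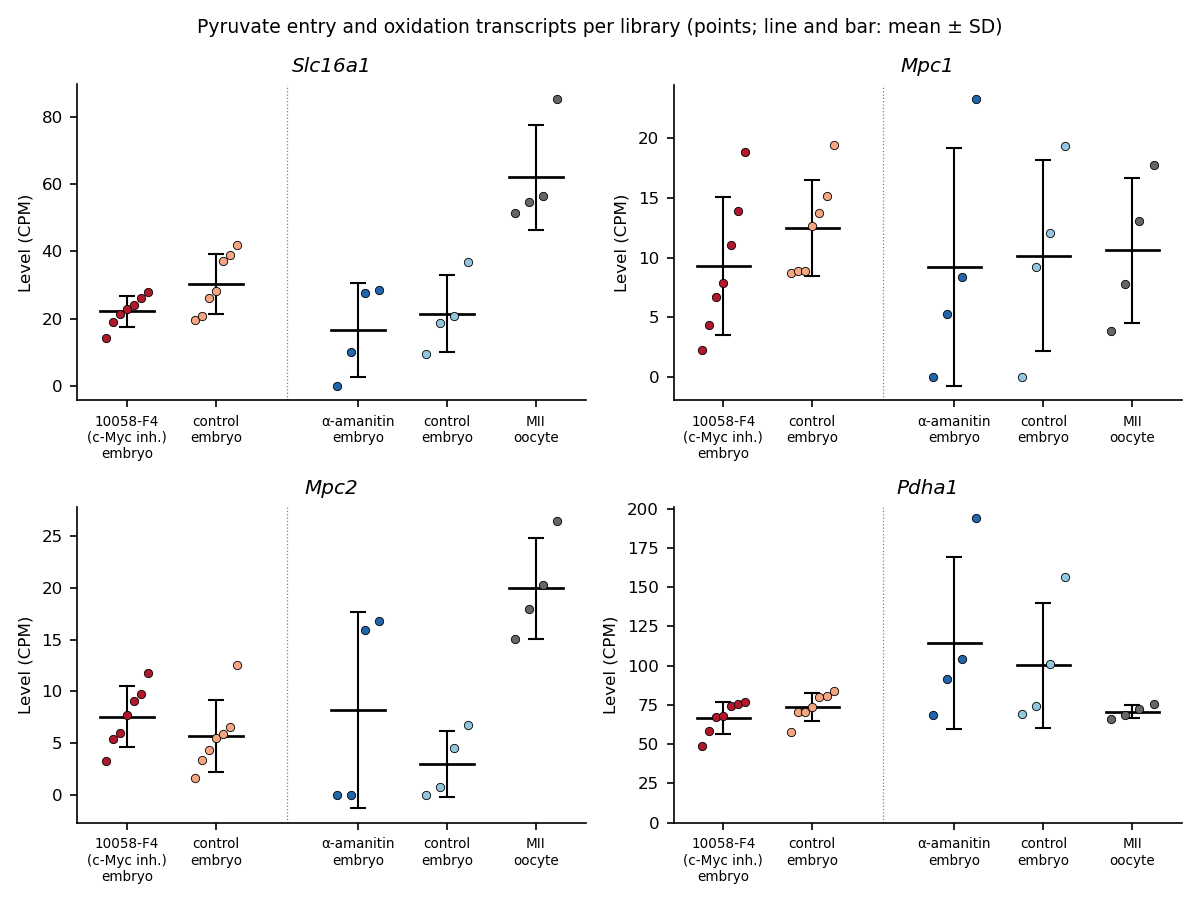
Levels of Slc16a1, Mpc1, Mpc2 and Pdha1 in CPM per library (points), with the mean ± SD (line and bar), in the same 5 groups (n = 7 for c-Myc inhibitor embryos and their controls, n = 4 for each of the others). In the Slc16a1 panel all 4 MII libraries, 51.4 to 85.3 CPM, lie above all 8 embryo libraries of their series.

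Of the 9 members that passed the filter in the first series, 1 was called higher (Ldhb) and 1 lower (Got1) with the c-Myc inhibitor, at an adjusted p under 0.05. Of all 13003 genes tested, 6.82% were called higher and 4.08% lower, and 1 of 9 in each direction is near those shares. The members' median log2 change was -0.13, beside -4.89e-04 over all genes tested. Non-overlapping ranges were found for no member higher and for 1 lower (Got1), beside 2.72% of genes higher and 1.18% lower.

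With alpha-amanitin no member was called in either direction, beside 0.0228% of 13133 genes called higher and 0.00761% called lower. At an unadjusted p under 0.05, 1 of 9 members (Ldhb) and 986 of all genes passed in edgeR. DESeq2 and limma voom also called none of the members. No member's groups were separated, beside 1.21% of genes separated upward and 1.58% downward. The alpha-amanitin and MII groups share this set of controls and 1 estimate of the spread, so the second series' comparisons are not independent of each other. That spread, as edgeR's common coefficient of variation between libraries, was 1.12, against 0.555 in the first series, which limits what could be called.

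For control embryos against MII oocytes, 0 of 9 members were called higher and 1 lower (Ldhb), beside 1.11% and 1.78% of all genes. The control embryos lay wholly below the oocytes for 4 of 9 members, Ldhb, Mdh1, Slc16a1 and Mpc2, and wholly above for none, where 9.37% of genes were separated downward and 5.08% upward. The median log2 change of the members was -0.45, beside -0.03 over all genes. For alpha-amanitin embryos against MII oocytes, no member was called, beside 0.442% of genes higher and 1.27% lower. At an unadjusted p under 0.05 in edgeR, 3 of 9 members passed, beside 1387 of all 13133 genes. DESeq2 and limma voom each called Ldhb lower there (adjusted p of 0.0170 and 0.00995). Ldhb and Slc16a1 were wholly below the oocytes and no member wholly above, beside 8.28% and 3.21% of genes.

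The effect of the c-Myc inhibitor minus the effect of alpha-amanitin was tested directly over 15790 genes in the 22 embryo libraries. No member was called, beside 0.678% of genes with a higher and 0.367% with a lower effect of the c-Myc inhibitor. At an unadjusted p under 0.05 in edgeR, Ldha alone of the 10 members passed, beside 2728 of the 15790 genes. DESeq2 and limma voom called no member either. The difference for Ldhb was -0.04 (SE 0.24, 95% interval -0.52 to 0.44). No value is given for Ldha, because its alpha-amanitin controls were all at 0.

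**Figure D4:**
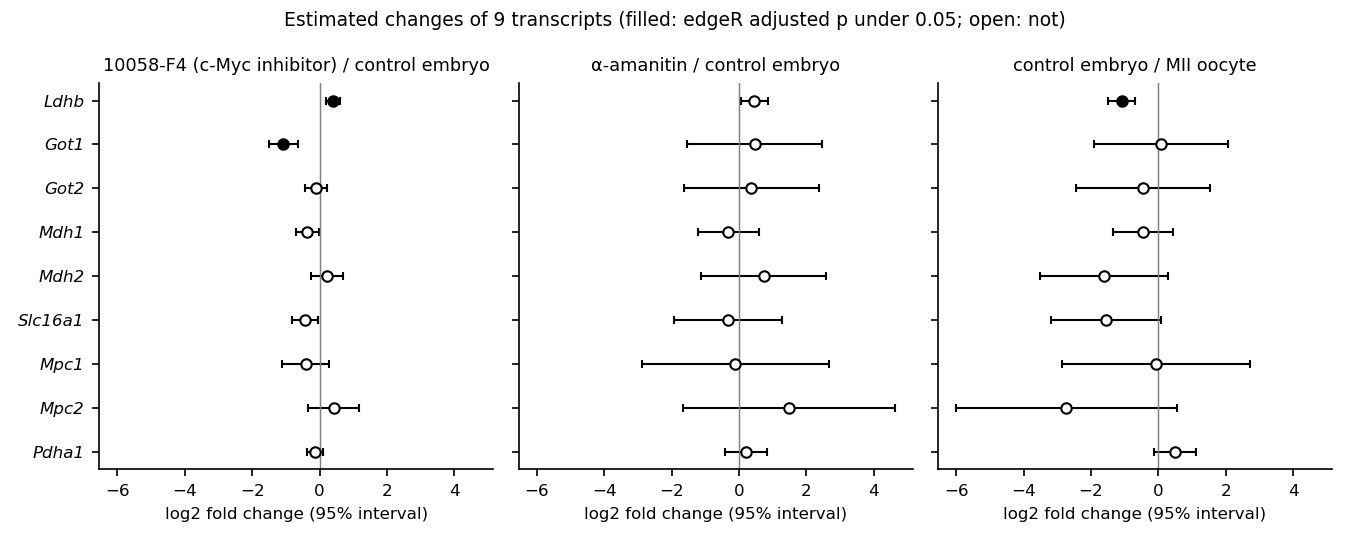
Log2 fold changes with 95% intervals for the 9 members that passed the filter, in c-Myc inhibitor embryos against controls, alpha-amanitin embryos against controls, and control embryos against MII oocytes. Filled points passed an edgeR adjusted p of 0.05: Ldhb (0.40) and Got1 (-1.07) in the left panel and Ldhb (-1.09) in the panel on the right. The intervals are wider in the middle and right panels, with 4 libraries a group, than in the left one, with 7. The second series also had the larger estimated spread between libraries (edgeR common coefficient of variation 1.12 against 0.555).

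Among genes next to these in the same pathways, the ones that changed with the c-Myc inhibitor were the partner of Slc16a1, some enzymes of glycolysis and some of the tricarboxylic acid cycle. Over the 5 lists together, 3 of the 55 genes tested were called higher and 3 lower in edgeR. Of all 13003 genes, 6.82% were called higher and 4.08% lower in this comparison, so the pooled counts are near those shares. In a list of 8 other transporters and lactate dehydrogenases, 1 of the 4 tested rose and none fell. This was Bsg, the membrane glycoprotein that brings Slc16a1 to the cell surface, at 84.5 ± 8.45 CPM in c-Myc inhibitor embryos and 53.2 ± 11.0 CPM in their controls (SD, n = 7 each), a log2 change of 0.68 (SE 0.13, edgeR adjusted p = 6.15e-04). The treated libraries spanned 76.7 to 101 CPM and lay above all controls, which spanned 44.5 to 73.7 CPM. The call was lost when the spread was estimated from all 5 groups together (log2 0.67, edgeR adjusted p = 0.173).

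Of 14 tested genes of glycolysis and glucose entry, 2 rose and none fell, beside 6.82% of all genes called higher. Aldoa, the muscle-type aldolase, averaged 63.5 ± 15.9 CPM in c-Myc inhibitor embryos and 37.9 ± 8.49 CPM in their controls (log2 change 0.76, SE 0.17, edgeR adjusted p = 0.00479). Pkm, the pyruvate kinase that makes pyruvate, averaged 288 ± 53.0 CPM in c-Myc inhibitor embryos and 202 ± 35.0 CPM in their controls (log2 change 0.52, SE 0.12, edgeR adjusted p = 0.00565). With the spread estimated from all 5 groups, the call of Pkm was lost (edgeR adjusted p = 0.128) and that of Aldoa kept (edgeR adjusted p = 0.0444). The list's median log2 change was 0.14.

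Of 17 tested genes of the tricarboxylic acid cycle, 3 fell and none rose, beside 4.08% of all genes called lower, and the median log2 change was -0.14. Sdha, the flavoprotein subunit of succinate dehydrogenase, averaged 99.3 ± 16.8 CPM in c-Myc inhibitor embryos and 132 ± 17.4 CPM in their controls (log2 change -0.40, SE 0.11, edgeR adjusted p = 0.0236). Ogdh, the E1 subunit of 2-oxoglutarate dehydrogenase, averaged 69.3 ± 9.46 CPM in c-Myc inhibitor embryos and 92.01 ± 15.9 CPM in their controls (log2 change -0.40, SE 0.12, edgeR adjusted p = 0.0377). Cs, citrate synthase, averaged 254 ± 32.7 CPM in c-Myc inhibitor embryos and 312 ± 32.5 CPM in their controls (log2 change -0.28, SE 0.09, edgeR adjusted p = 0.0407). The calls of Cs and Ogdh were lost in 10 and 7 of the 14 fits that each left out 1 library, and that of Sdha in 3. Estimating the spread from all 5 groups together ended all 3 (edgeR adjusted p = 0.171 for Cs, 0.326 for Ogdh and 0.188 for Sdha). The replicate block ended those of Cs and Ogdh (edgeR adjusted p = 0.163 and 0.0681), and the test without a filter ended that of Cs (edgeR adjusted p = 0.0672). None of the 11 tested genes of the pyruvate dehydrogenase complex and its regulators, and none of the 9 tested genes of other shuttles and mitochondrial carriers, passed in either direction in edgeR, with median log2 changes of -0.03 and -0.02. At an unadjusted p under 0.05 in edgeR, 1 and 2 of them passed, beside 2862 of all 13003 genes. DESeq2 called 2 genes of other shuttles and carriers lower, and limma voom called none.

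In the alpha-amanitin comparison none of the 58 tested genes of these 5 lists passed in edgeR. At an unadjusted p under 0.05 in edgeR, 4 of them passed, beside 986 of all 13133 genes. DESeq2 called 1 of the 58 higher and limma voom none. For control embryos against MII oocytes, 1 of the 58 genes was called higher and 1 lower in edgeR. Of all 13133 genes, 1.11% were called higher and 1.78% lower, so these counts are near those shares. Both called genes were among the 17 tested of the tricarboxylic acid cycle. Cs averaged 370 ± 53.8 CPM in control embryos and 225 ± 26.5 CPM in oocytes (log2 change 0.71, SE 0.17, edgeR adjusted p = 0.0229). Sdhd, a membrane anchor of succinate dehydrogenase, averaged 18.7 ± 12.9 CPM in control embryos and 86.9 ± 11.0 CPM in oocytes (log2 change -2.22, SE 0.56, edgeR adjusted p = 0.0306). Leaving out single libraries ended the call of Cs in 5 and that of Sdhd in 6 of 9 cases, which were the 8 libraries compared and alpha-amanitin replicate 3. Of the 10 oocyte markers, 5 were called higher with the c-Myc inhibitor (Gdf9, H1foo, Mos, Zp1 and Zp2), beside 6.82% of all genes. In control embryos 5 were called lower than in oocytes, beside 1.78% of all genes.

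Over the 26 libraries, the genes whose log2(CPM + 1) followed that of Got1 most closely, among 7281 genes averaging 10 CPM or more, were Lsm1 (Pearson r = 0.88), Ncoa1 (0.85) and Chd1 (0.84). Those that followed Ldhb were Akap1 (0.89), Eif3g (0.89) and Padi6 (0.88). Padi6, a maternal protein of the egg cortex, averaged 911 ± 142 CPM in c-Myc inhibitor embryos and 805 ± 171 CPM in their controls, and 1711 ± 111 CPM in MII oocytes. These correlations describe libraries that share depth and group, alpha-amanitin replicate 3 included, and carry no test.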

How the data were processed

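RNA was measured in 26 libraries of mouse 1-cell embryos and MII oocytes, prepared from directly lysed cells with Takara's stranded SMARTer Pico kit for total RNA, per the labels' protocols. The deposited values are the authors' raw counts per gene. Reads were processed with cutadapt 1.7.1 and STAR 2.5.0a on GRCm38, per the submitters' processing notes. The sources used here do not give the counting program, strand setting or annotation. The treatment protocol also names MYCi975, a second c-Myc inhibitor, while the first series' treated samples are all labelled with the thiazolidinone's code name. No 2 libraries were identical.

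Symbols, coordinates and merged-exon lengths came from GENCODE vM21, and promoters from RefSeq (GRCm38.p6). IDs with no symbol numbered 260 and held 0.00563% of counts. Each series was fitted on its own in R 4.3.3 with edgeR 4.0.16 (TMM scaling, filterByExpr with a minimum count of 10 and a minimum total of 15, quasi-likelihood F test, Benjamini-Hochberg adjustment over all genes kept, threshold 0.05). Each SE was derived from the log2 change and its F statistic. Intervals are nominally at 95% and use normal quantiles, so with this few libraries they are somewhat too narrow. DESeq2 1.42.0, limma 3.58.1 with voom, other scaling, no filter, 1 fit of all 5 groups, a replicate block and leaving out each library were the alternatives. The procedure was tested on simulated data. All 10 members are named, with at most 3 called genes of each neighbouring list and the 3 genes most correlated with each member called under the c-Myc inhibitor. The members, lists and markers were chosen with earlier results of these data known.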

Additional observations from a re-analysis of the deposited data

Results flagged for a closer look

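Of 49 sets of values (1 member in 1 group) examined, 6 held a library whose gap to its nearest neighbour was large for the range of the set. The rule flags about 1 in 20 sets of normally distributed values. These values include many zeros, so the count of 6 is not set against that rate. Ldha accounted for 3 of the 6: c-Myc inhibitor replicate 2 at 0.183 CPM, alpha-amanitin replicate 1 at 1.57 CPM and MII replicate 4 at 18.6 CPM. In the c-Myc inhibitor and alpha-amanitin groups every other library had no Ldha count, so the gap equals the range and a flag was certain. Slc16a1 was also highest in MII replicate 4, at 85.3 CPM. Mdh2 stood apart in alpha-amanitin replicate 3, the shallowest library, at 71.8 CPM, and in control replicate 1 of the first series, at 29.6 CPM.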

How the results depend on the processing

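In c-Myc inhibitor embryos against their controls, Got1 was lower under all 20 alternatives (log2 -1.19 to -0.97), and its call was lost in 1, the fit of all 5 groups. Ldhb was higher under all 20 (log2 0.33 to 0.48) and its call was lost in 3. Members called higher were 0 in the fit of all 5 groups and 0 with the replicate block, and 0 to 1 when single libraries were left out. Members called lower were 0 in the fit of all 5 groups. With the replicate block Ldhb had a log2 fold change of 0.33 (edgeR adjusted p = 0.0895). Same-numbered libraries deviated from their group means with correlations between -0.03 and 0.05 over genes, so the numbers are not taken to pair libraries. For control embryos against MII oocytes, Ldhb was called lower under all 16 alternatives (log2 -1.19 to -1.004), and members called lower were 2 in the fit of all 5 groups (Ldhb and Ldha) and 2 in the fit of these groups alone (Ldhb and Slc16a1). For alpha-amanitin embryos against MII oocytes, members called lower were 1 in each of DESeq2, limma voom, the test without a filter and the fit of all 5 groups, and that member was Ldhb (edgeR adjusted p = 1.18e-04 without a filter and 0.0323 in the fit of all 5 groups). For the effect of the c-Myc inhibitor minus that of alpha-amanitin, 0 to 1 members were called lower when single libraries were left out, 1 only without alpha-amanitin replicate 3. The cause of these changes was not tested.

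The values that changed sign were of uncalled members. For alpha-amanitin embryos against controls, limma voom gave log2 -0.14 for Got1, 0.47 for Mpc1 and -0.039 for Pdha1. With limma voom the difference of the inhibitors' effects was 0.46 for Slc16a1 and 0.38 for Mpc2. The replicate block gave 0.19 for Mpc1 in control embryos against MII oocytes. Leaving out single libraries gave these log2 ranges. In c-Myc inhibitor embryos against controls, Got2 ran from -0.18 to 0.0075. In alpha-amanitin embryos against controls, Mdh2 ran from -0.20 to 1.24, Slc16a1 from -0.71 to 0.065, Mpc1 from -1.13 to 0.40 and Pdha1 from -0.17 to 0.50. In control embryos against MII oocytes, Got1 ran from -0.25 to 0.56 and Mpc1 from -0.596 to 0.35. In alpha-amanitin embryos against MII oocytes, Got2 ran from -0.34 to 0.32 and Mpc1 from -1.19 to 0.22. For the difference of effects, Mdh1 ran from -0.27 to 0.18, Mdh2 from -1.05 to 0.41, Ldhb from -0.26 to 0.053, Slc16a1 from -0.51 to 0.28, Mpc1 from -0.82 to 0.70 and Pdha1 from -0.63 to 0.038.

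Over all genes, 887 were called higher and 531 lower with the c-Myc inhibitor, with 266 and 115 in the fit of all 5 groups and 1054 and 859 in DESeq2. With alpha-amanitin 3 and 1 were called, with at most 91 (DESeq2) and 40 (the fit of all 5 groups). For control embryos against MII oocytes, 146 higher calls ranged from 63 to 572 over the alternatives, and 234 lower calls from 146 to 837. For alpha-amanitin embryos against MII oocytes, 58 higher calls ranged from 20 to 329 and 167 lower calls from 102 to 530. For the difference of effects, 107 ranged from 67 to 413 and 58 from 25 to 629. The interaction libraries left out in turn, the fits of 2 groups alone and the fit of control embryos and oocytes without alpha-amanitin replicate 3 were chosen after seeing the data. In the second series 4 libraries a group, 1 of them with 5371602 counts, limit the precision for the lower members.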
